A study of Mus musculus with 6 samples.

Results

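The circadian clock is a transcriptional feedback loop that runs in nearly every mammalian cell, the alveolar epithelium of the lung included. The activators BMAL1 (encoded by *Arntl*) and CLOCK, or its paralog NPAS2, bind E-boxes as a dimer and turn on the *Per* and *Cry* genes, whose proteins then repress the dimer. A companion loop is formed by the nuclear receptors REV-ERBα (*Nr1d1*) and REV-ERBβ (*Nr1d2*), which are also E-box targets and repress *Arntl* and *Npas2* through ROR elements, while the output factor DBP acts on D-boxes. Activator transcripts and those of the E-box targets therefore peak at opposite times of day in most tissues, with *Cry1* peaking later than the *Per* genes. The 10 genes described here are *Arntl*, *Clock*, *Npas2*, *Nr1d1*, *Nr1d2*, *Per1*, *Per2*, *Per3*, *Cry1* and *Dbp*, chosen by symbol from the 24421 genes of the count table. They were chosen with their levels in these 6 libraries in view, so those levels are given as a description and without tests of their own. The comparison of the 2 groups below is not independent of that choice either. All 10 were among the 16723 genes that passed the filter on low counts.

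The libraries hold poly(A) RNA of alveolar type 2 (AT2) cells that carried a fluorescent lineage label and were sorted by FACS, from 3 mice in each of 2 groups. AT2 CTRL mice had the genotype Sftpc-CreERT2/+; R26-tdTomato/+ and AT2 CAB mice the genotype Sftpc-CreERT2/+; R26-tdTomato/R26-caBmpr1a, so Cre and the tdTomato reporter were common to both groups. The caBmpr1a allele encodes a constitutively active type I BMP receptor, and in the methods tamoxifen was given to activate the Cre, which the promoter of the surfactant gene *Sftpc* drives. The mice were kept on a C57BL/6 background, and the study notes that some labeled cells may have recombined the reporter but not caBmpr1a. AT2 CTRL replicate 2 and AT2 CAB replicate 1 came from mice 16 weeks old and the other 4 from mice 12 weeks old. No label gives the time of day at which a mouse was killed.

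Total counts ranged from 21554249 to 28440227 per library, at which 3 counts, taken as the floor, correspond to between 0.105 and 0.139 CPM (reads scaled by TMM to a common library size, the scale of all levels below unless stated). These limits cover counting error only. AT2 CTRL replicate 1 and AT2 CAB replicate 3 stood apart from the rest along the first principal component (49.3% of the variance). They also had Y-linked reads (*Eif2s3y*, *Kdm5d*, *Uty* and *Ddx3y*), 176.4 and 146.3 CPM in sum, against 0 in the other 4 libraries, so group differences and likeness between genes are given with and without them. The 10 AT2 markers summed to between 117500 and 132600 CPM in AT2 CTRL and between 100300 and 112200 CPM in AT2 CAB. Endothelial markers summed to 162.7 to 356.6 and 315.5 to 510 CPM in the respective groups, mesenchymal markers to 109 to 150.1 and 170.5 to 213.8 CPM, AT1 markers to 2455 to 3309 and 2669 to 3155 CPM, and airway markers to 530.1 to 740.7 and 702.9 to 1089 CPM, with *Krt5* at 0 in every library. Leukocyte markers summed to 2059 to 2751 and 334.7 to 1405 CPM, mostly from *Lyz1* (means 2210 and 879 CPM). Of the 8, 5 had a log2 fold change above 0 and 3 below (median 0.415). No marker of the 8 besides *Lyz1* had a group mean above 65.6 CPM. The lower sum in AT2 CAB thus follows *Lyz1*, does not describe most of these markers and is not read as leukocyte content. AT2 CAB replicate 3 was the highest or lowest library for 0 of 6 endothelial, 1 of 6 mesenchymal, 1 of 8 AT1, 7 of 10 AT2 and 5 of 8 leukocyte markers. In bulk RNA of this kind, fewer cells of a type and less RNA per cell cannot be told apart, and the part of other cells in the clock gene levels was not tested.

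To place the members in the loop they take part in, their promoters were searched for the elements named above. RefSeq windows from 250 bases before to 50 bases after a transcription start (GRCm38.p6, the assembly behind mm10) matched 9 of the 10 genes, all but *Per2*. On both strands the E-box CACGTG was present in 7.15% of all 32851 windows, its variant CACGTT in 4.68%, the D-box TTATGNAA in 3.38% and the ROR element TAGGTCA in 2.61%. These letters were found in windows of *Arntl*, *Nr1d1*, *Per1*, *Per3* and *Cry1* and not in those of *Clock*, *Npas2*, *Nr1d2* and *Dbp*. The stretches that hold them are shown 5′ to 3′ on the gene's strand, with the matched letters in capitals.
Arntl, chr7:113207531-113207557, plus strand: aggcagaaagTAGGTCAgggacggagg
Nr1d1, chr11:98775380-98775425, minus strand: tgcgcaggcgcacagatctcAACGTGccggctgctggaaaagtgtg
Per1, chr11:69098763-69098948, plus strand: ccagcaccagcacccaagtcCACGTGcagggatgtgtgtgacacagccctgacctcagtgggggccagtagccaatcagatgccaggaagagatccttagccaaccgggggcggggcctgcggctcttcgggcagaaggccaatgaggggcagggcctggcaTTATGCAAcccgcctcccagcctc
Per3, chr4:151044796-151044890, minus strand: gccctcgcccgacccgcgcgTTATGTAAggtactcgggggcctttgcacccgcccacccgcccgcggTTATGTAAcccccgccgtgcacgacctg
Cry1, chr10:85185089-85185153, minus strand: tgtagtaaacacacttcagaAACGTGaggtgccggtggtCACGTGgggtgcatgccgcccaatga

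The *Arntl* stretch lies within an exon of the count table, with its ROR element at position 31 after the start of the second of the gene's windows. Among the 9 members with a window, *Per1* alone held both an E-box, at -166, and a D-box, at -24. *Per2* could not be searched. *Per3* had a pair of D-boxes, at -205 and -158. *Cry1* had an E-box at -60 and, at -79, the variant on the other strand, where it reads AACGTG in the direction of the gene. The single match of *Nr1d1*, at -28, was also the variant on the other strand. These are matches of letters only, and binding was not measured in these samples.

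Among the activators, *Arntl* (mm10 chromosome 7, 113207465 to 113314126) had 50.8, 71.9 and 86.3 CPM in AT2 CTRL replicates 1, 2 and 3 and 59.2, 61.6 and 15.95 CPM in AT2 CAB replicates 1, 2 and 3. The 2 libraries with Y-linked reads were the lowest of the 6, and AT2 CAB replicate 3 lay far below the rest, at 23.9% of the median of the 4 other libraries. *Npas2* (chromosome 1, 39194272 to 39363240), the paralog of *Clock*, had 39.4, 67.7 and 79.2 CPM in AT2 CTRL and 47.3, 52.1 and 9.41 CPM in AT2 CAB. Its libraries followed the same order as those of *Arntl*, over a wider span, with AT2 CAB replicate 3 at 15.7% of the median of the 4. *Clock* itself (chromosome 5, 76209868 to 76304792) had 70.8, 114.5 and 109.5 CPM in AT2 CTRL and 90.6, 86.7 and 59.9 CPM in AT2 CAB. It had the same lowest pair of libraries but the narrowest span of the 10, 1.91-fold from lowest to highest, against 5.41-fold for *Arntl* and 8.42-fold for *Npas2*.

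*Cry1* (chromosome 10, 85131700 to 85185054), a repressor of the dimer, was placed with the activators. It had 12.2, 26.0 and 37.3 CPM in AT2 CTRL and 17.2, 18.4 and 8.07 CPM in AT2 CAB. The order of its libraries was that of *Arntl* and *Npas2*, and AT2 CTRL replicate 3 had 4.62 times the level of AT2 CAB replicate 3.

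The *Per* genes, repressors that work with the CRY proteins, were highest in AT2 CAB replicate 3. *Per1* (chromosome 11, 69098956 to 69109957), which many acute stimuli also induce, had 207.7, 198.3 and 239.7 CPM in AT2 CTRL and 232.3, 255.4 and 511.1 CPM in AT2 CAB. Outside AT2 CAB replicate 3 its levels spanned 0.37 on the log2 scale, and AT2 CTRL replicate 1 was the second lowest library, whereas for the other 9 genes it stood next to AT2 CAB replicate 3. *Per2* (chromosome 1, 91415982 to 91459328) had 68.4, 39.6 and 39.3 CPM in AT2 CTRL and 39.9, 59.4 and 188.6 CPM in AT2 CAB. *Per3* (chromosome 4, 151003655 to 151044665) had 55.8, 43.6 and 42.45 CPM in AT2 CTRL and 47.8, 42.4 and 88.7 CPM in AT2 CAB. For both, AT2 CTRL replicate 1 was the second highest library, but it stood closer to the rest than to AT2 CAB replicate 3, which had 4.75 times the median of the 4 other libraries for *Per2* and 2.06 times for *Per3*.

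The REV-ERB genes differed from the *Per* genes in AT2 CTRL replicate 1. *Nr1d1* (chromosome 11, 98767932 to 98775377) had 439.7, 130.6 and 74.4 CPM in AT2 CTRL and 150.0, 104.7 and 649.2 CPM in AT2 CAB. *Nr1d2* (chromosome 14, 18204056 to 18239106) had 112.0, 59.1 and 42.4 CPM in AT2 CTRL and 75.8, 57.6 and 132.9 CPM in AT2 CAB. Both genes had the same order of libraries, with the 2 that carry Y-linked reads well above the other 4. Against the median of those 4, *Nr1d1* was 5.52 times higher in AT2 CAB replicate 3 and 3.74 times in AT2 CTRL replicate 1, and the values for *Nr1d2* were 2.28 and 1.92 times.

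The output factor *Dbp* (chromosome 7, 45705247 to 45710203) varied most. Its levels were 30.4, 8.62 and 2.89 CPM in AT2 CTRL and 27.1, 11.02 and 85.7 CPM in AT2 CAB, from 679, 201, 76, 591, 284 and 2633 counts. AT2 CAB replicate 3 had 29.6 times the level of AT2 CTRL replicate 3, and within AT2 CTRL alone replicate 1 was over 10 times replicate 3. The libraries of *Dbp* stood in exactly the reverse of the order of *Arntl*. Of the 1678 exonic bases of *Dbp*, 539 (32.1%) overlap exons of *Sphk2* on the opposite strand and were left out of the counting, which lowers its level in all libraries. Exons of the other 9 genes overlap no other gene of the table.

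**Figure D1:**
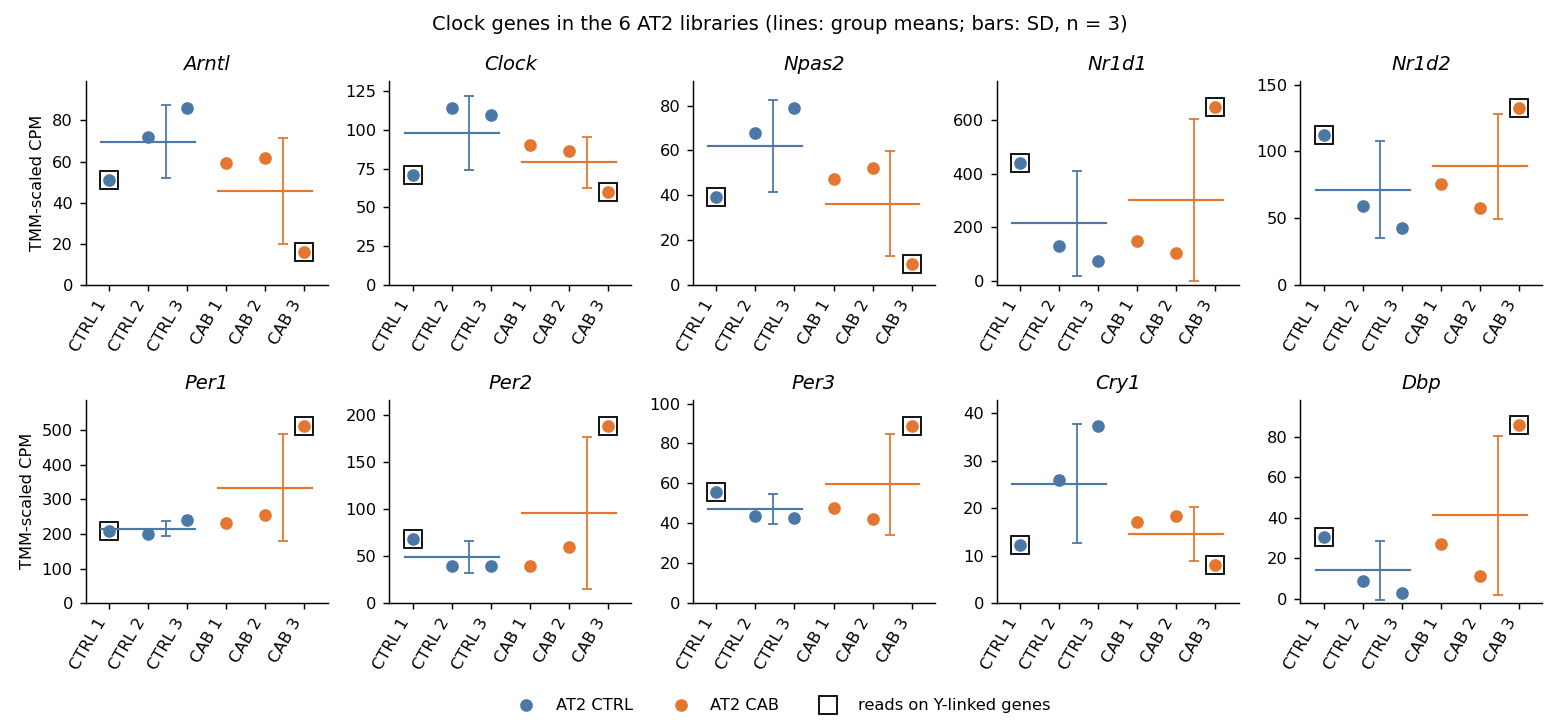
Level of each of the 10 genes (y axis, TMM-scaled CPM) in the 3 AT2 CTRL and 3 AT2 CAB libraries (x axis), with group means as lines and SD as bars and squares around the 2 libraries with reads on Y-linked genes. AT2 CAB replicate 3 is the lowest library for *Arntl*, *Clock*, *Npas2* and *Cry1* and the highest for the other 6 genes, and a bar that reaches below 0 shows an SD larger than the mean.

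Measured as the difference between the highest and the lowest library on the log2 CPM scale, the 10 genes had a median range of 2.23, against 0.79 for all genes tested. The range was 4.85 for *Dbp*, 3.12 for *Nr1d1*, 3.06 for *Npas2*, 2.43 for *Arntl*, 2.26 for *Per2*, 2.20 for *Cry1*, 1.65 for *Nr1d2*, 1.37 for *Per1*, 1.06 for *Per3* and 0.93 for *Clock*. *Dbp* ranked 25th, *Nr1d1* 458th and *Npas2* 509th of the 16723 genes, while *Clock*, at 7228th, lay near the middle. Of the 10, 9 had a range above 1, as had 40.6% of all genes. AT2 CAB replicate 3 was an extreme library for 10 of 10 genes and for 54.3% of all genes. Leaving it out took the range to 0.76 for *Arntl*, 1.01 for *Npas2*, 0.80 for *Per2*, 0.40 for *Per3* and 0.37 for *Per1*, and moved no other range of the 10 beyond the spread between replicates.

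Because single libraries are not time points, the phase relations between the genes can be read here only as the order in which libraries stand. *Arntl*, *Npas2* and *Cry1* gave an identical order, from AT2 CAB replicate 3 through AT2 CTRL replicate 1, AT2 CAB replicates 1 and 2 and AT2 CTRL replicate 2 up to AT2 CTRL replicate 3, and *Dbp* gave its reverse. *Nr1d1* and *Nr1d2* shared a single order that differed from that of *Dbp* only in placing AT2 CAB replicate 2 below AT2 CTRL replicate 2. The 2 groups are interleaved in all of these orders. For 7 of the 10 genes the extreme opposite to AT2 CAB replicate 3 was AT2 CTRL replicate 3, and for 9 of the 10 the library next to AT2 CAB replicate 3 was AT2 CTRL replicate 1.

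Likeness to *Arntl* was summarised by Pearson's r of log2 CPM and Spearman's rho over the 6 libraries, as a description only, since all genes share the libraries and their scaling. *Npas2* (r = 1.00, rho = 1.00), *Cry1* (r = 0.89, rho = 1.00) and *Clock* (r = 0.87, rho = 0.89) went with *Arntl*. Opposite to it were *Per3* (r = -0.97, rho = -0.83), *Per2* (r = -0.96, rho = -0.94), *Nr1d1* (r = -0.86, rho = -0.94), *Dbp* (r = -0.86, rho = -1) and *Nr1d2* (r = -0.84, rho = -0.94). The *Per1* value of r = -0.90 came with a rho of -0.31 and was 0.18 without AT2 CAB replicate 3, so it rests on that library. Without the libraries farthest from the *Arntl* median, AT2 CAB replicate 3 and AT2 CTRL replicate 3, r was -0.13 for *Per1*, between 0.98 and 1.00 for *Clock*, *Npas2* and *Cry1*, and -0.73 for *Per2*, -0.79 for *Nr1d1*, -0.85 for *Per3*, -0.87 for *Dbp* and -0.88 for *Nr1d2*. Without the 2 libraries with Y-linked reads, r was 1.00 for *Cry1*, 0.98 for *Npas2* and 0.81 for *Clock*, -0.94 for *Dbp*, -0.90 for *Nr1d2* and -0.78 for *Nr1d1*, but -0.57 for *Per3*, -0.47 for *Per2* and -0.19 for *Per1*. The likeness of the *Per* genes to *Arntl* was thus the one that lost most in size when AT2 CTRL replicate 1 and AT2 CAB replicate 3 were left out.

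**Figure D2:**
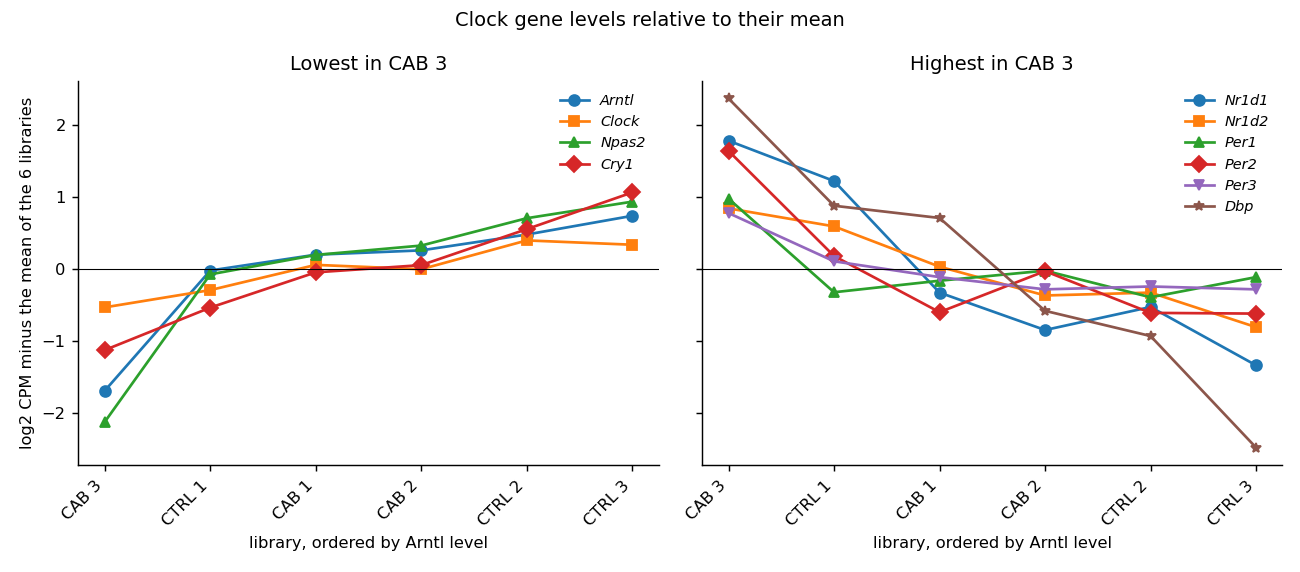
Level of each gene relative to its own mean over the 6 libraries (y axis, log2 CPM) with libraries ordered from the lowest to the highest *Arntl* level (x axis), in panels for the genes lowest and highest in AT2 CAB replicate 3. *Arntl*, *Npas2* and *Cry1* climb at each step from left to right, *Dbp* descends at each step, and *Per1* is nearly level after AT2 CAB replicate 3.

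Ratios between genes within a library do not depend on how libraries are scaled. Per exon length, *Nr1d1* had 9.10, 1.91 and 0.907 times the level of *Arntl* in AT2 CTRL replicates 1, 2 and 3 and 2.66, 1.79 and 42.8 times in AT2 CAB replicates 1, 2 and 3. The ratio of *Dbp* to *Arntl* was 1.04, 0.208 and 0.0581 in AT2 CTRL and 0.793, 0.310 and 9.31 in AT2 CAB. The exonic bases of *Dbp* left out of the counting make this ratio too low in all libraries. In both ratios AT2 CAB replicate 3 and AT2 CTRL replicate 3 were the ends, and AT2 CTRL replicate 1 was second from the top. Between repressors, the ratio of *Per2* to *Cry1* was 2.90, 0.786 and 0.545 in AT2 CTRL and 1.2, 1.67 and 12.1 in AT2 CAB. The 2 partners of BMAL1 were in more constant proportion in 5 libraries, where *Npas2* had between 1.24 and 1.72 times the level of *Clock*, while in AT2 CAB replicate 3 it had 0.373 times. *Arntl* had between 2.14 and 2.69 times the level of *Clock* in those 5 libraries and 0.908 times in AT2 CAB replicate 3.

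AT2 CTRL replicate 1 and AT2 CAB replicate 3 did not hold the same proportions of the 10 transcripts. When the log2 distance from AT2 CTRL replicate 3 to AT2 CAB replicate 3 is set to 100% for each gene, AT2 CTRL replicate 1 lay at 85.0% for *Nr1d2*, 82.0% for *Nr1d1*, 73.1% for *Cry1*, 72.3% for *Clock* and 69.3% for *Dbp*. It had gone much less of the distance for *Per3* (37.0%), *Per2* (35.3%), *Npas2* (32.9%) and *Arntl* (31.4%), and lay on the other side of the starting library for *Per1*, at -18.9%. As a share of distance, AT2 CTRL replicate 1 was thus nearer to AT2 CAB replicate 3 for the first-named genes than for the rest. In log2 units that split was kept except for *Dbp*. From AT2 CTRL replicate 1 to AT2 CAB replicate 3 *Dbp* rose by 1.49, against 1.46 for *Per2*, 1.30 for *Per1* and 0.67 for *Per3*. *Arntl* and *Npas2* changed by -1.67 and -2.06. The other first-named genes changed less, by 0.25 for *Nr1d2*, 0.56 for *Nr1d1*, -0.59 for *Cry1* and -0.24 for *Clock*. AT2 CAB replicate 1 lay farthest along for *Dbp* (65.8%), *Nr1d2* (50.8%) and *Cry1* (50.8%) and at 0.9% for *Per2*. AT2 CAB replicate 2 lay at 46.3% for *Cry1*, 39.2% for *Dbp* and -0.3% for *Per3*. AT2 CTRL replicate 2 reached 31.9% for *Dbp*, its highest value, and -25.1% for *Per1*. These positions rest on single libraries at both ends and carry no error.

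**Figure D3:**
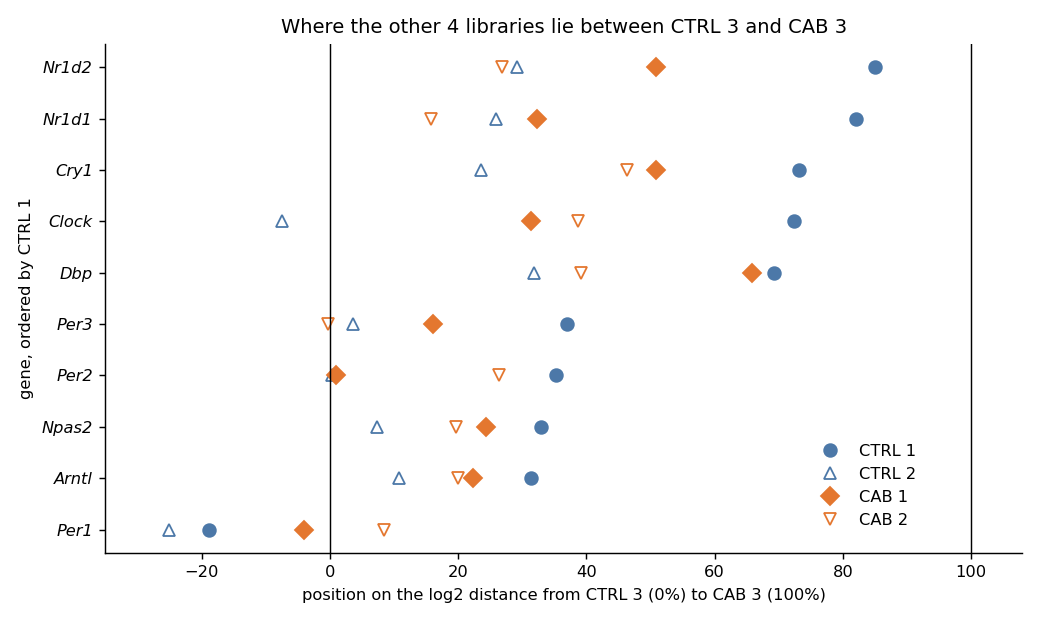
Position of the 4 remaining libraries (symbols) between AT2 CTRL replicate 3 at 0% and AT2 CAB replicate 3 at 100% of the log2 distance (x axis), for each gene (y axis, ordered by AT2 CTRL replicate 1). AT2 CTRL replicate 1 lies between 69.3% and 85.0% for the upper 5 genes and at 37.0% or less for the lower 5.

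The comparison of AT2 CAB with AT2 CTRL asks which transcripts active BMP receptor signaling alters in AT2 cells. A gene was called, here and throughout, when its log2 fold change was over 1 in size and edgeR's quasi-likelihood test gave a Benjamini-Hochberg adjusted p under 0.05. Of 8 BMP targets, 5 were called higher (0.227% of all genes), namely *Id1*, *Id3*, *Smad6*, *Smad9* and *Atoh8*, with log2 fold changes from 1.27 to 4.58, and of the airway markers *Tppp3* (1.85). *Id1*, a direct target of BMP signaling, had 18.5, 20.8 and 19.2 CPM in AT2 CTRL and 124.4, 176.6 and 411.4 CPM in AT2 CAB, again with AT2 CAB replicate 3 highest. Of the 10 clock genes, 0 were called, against 0.239% of all genes tested. At an unadjusted p under 0.05 the count was also 0 of 10 with edgeR, and DESeq2 and limma-voom called 0 as well, with 1 (*Per1*) and 0 genes at that unadjusted p. This count depended on the libraries and the model. With edgeR it was 6 of 10 in the 4 libraries without Y-linked reads (13.5% of all genes), 8 of 10 with a covariate for those reads (18.6% of all genes), and 3 of 10 without AT2 CTRL replicate 1 (11.7% of all genes). The members were chosen with these libraries in view and vary together, so the counts are a description and do not test the list. The levels of the 2 groups overlapped for 10 of 10 clock genes, whereas they did not overlap for 17.1% of all genes. Of the log2 fold changes, 6 were above 0 and 4 below, with a median of 0.328 over the 10 genes and of -0.00958 over all genes.

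By role, the activators had lower means in AT2 CAB, with large errors. The mean of *Arntl* was 69.7 ± 17.8 CPM (SD, n = 3) in AT2 CTRL and 45.6 ± 25.7 CPM in AT2 CAB, a log2 fold change of -0.61 with a standard error of 0.44. For *Npas2* the means were 62.1 ± 20.5 and 36.2 ± 23.4 CPM and the log2 fold change -0.78 (SE 0.54), and for *Clock* they were 98.2 ± 23.9 and 79.1 ± 16.7 CPM and -0.31 (SE 0.22). *Cry1* had means of 25.2 ± 12.6 and 14.5 ± 5.63 CPM and a log2 fold change of -0.80 (SE 0.42). In each of these 4 genes the difference was smaller than 2 standard errors. Without AT2 CAB replicate 3 the log2 fold changes were -0.17 for *Arntl*, -0.29 for *Npas2*, -0.11 for *Clock* and -0.47 for *Cry1*, and without AT2 CTRL replicate 1 they were -0.80, -1.03, -0.51 and -1.13 in the same order. *Cry1* was also at -0.40 without AT2 CTRL replicate 3.

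The *Per* genes had higher means in AT2 CAB, with replicate 3 above all other libraries. *Per1* had means of 215 ± 21.7 and 333 ± 155 CPM (log2 fold change 0.63, SE 0.28), *Per2* of 49.1 ± 16.7 and 96.0 ± 80.8 CPM (0.97, SE 0.53) and *Per3* of 47.3 ± 7.38 and 59.6 ± 25.3 CPM (0.34, SE 0.27). Without that library the log2 fold change was 0.22 for *Per1*, 0.06 for *Per2* and -0.03 for *Per3*, so that of *Per3* changed sign. *Nr1d1* had means of 215 ± 197 and 301 ± 302 CPM (0.49, SE 0.79), and *Nr1d2* of 71.2 ± 36.3 and 88.8 ± 39.3 CPM (0.32, SE 0.39), so neither difference exceeded its standard error. Their signs also turned without AT2 CAB replicate 3, to -0.70 for *Nr1d1* and -0.05 for *Nr1d2*, while without AT2 CTRL replicate 1 the values were 1.55 and 0.80, and without AT2 CTRL replicate 3 they were 0.07 and 0.05. *Dbp* had the largest difference of the 10 over all 6 libraries, 14 ± 14.5 against 41.3 ± 39.3 CPM (1.57, SE 0.89), with an SD about as large as the mean in both groups. Its value was 0.50 without AT2 CAB replicate 3, smaller in size than that of *Nr1d1* there, 1.08 without AT2 CTRL replicate 3 and 2.85 without AT2 CTRL replicate 1.

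Within the 4 libraries without Y-linked reads the log2 fold changes were closer to 0 for most genes and had smaller errors. These errors come from 2 libraries against 2, after the 2 that stood apart were left out. The adjusted p from edgeR's test ran from 0.0909 for *Npas2* to 0.718 for *Per3*. They were -0.36 (SE 0.11) for *Arntl*, -0.53 (SE 0.11) for *Npas2*, -0.30 (SE 0.08) for *Clock* and -0.80 (SE 0.18) for *Cry1*. The values were 0.19 (SE 0.11) for *Per1*, 0.37 (SE 0.18) for *Per2*, 0.10 (SE 0.10) for *Per3*, 0.35 (SE 0.25) for *Nr1d1*, 0.43 (SE 0.18) for *Nr1d2* and 1.76 (SE 0.53) for *Dbp*. For a count of overlaps the 4 libraries were scaled by TMM on their own. The levels then did not overlap, 2 against 2, for 8 of the 10 genes (all but *Nr1d1* and *Per1*). The share was 44.9% of all genes that passed the filter in both sets. On the scale of all 6 libraries *Nr1d2* and *Per3* overlapped as well. AT2 CAB replicate 2 (57.65 and 42.36 CPM) lay below AT2 CTRL replicate 2 (59.15 and 43.59 CPM) there. *Per2* was separated only by 39.56 CPM in AT2 CTRL replicate 2 against 39.88 CPM in AT2 CAB replicate 1. In these 4 libraries 0 of 10 were called, against 0.343% of all genes. With both libraries with Y-linked reads left out, *Clock*, *Cry1*, *Dbp*, *Nr1d1* and *Nr1d2* were thus close to their values over all 6. They were farther from those values when either library was left out alone. *Per1*, *Per2* and *Per3* were at most 0.37 with both left out.

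The 2 libraries with Y-linked reads hold 1 of each group and give a difference without an error. On the log2 scale, from AT2 CTRL replicate 1 to AT2 CAB replicate 3, it was -2.06 for *Npas2* and -1.67 for *Arntl*. It was 1.49 for *Dbp*, 1.46 for *Per2* and 1.30 for *Per1*. Smaller differences were 0.67 for *Per3*, -0.59 for *Cry1*, 0.56 for *Nr1d1*, 0.25 for *Nr1d2* and -0.24 for *Clock*. Each of the 10 genes had the same sign in this pair as in the 4 libraries. The 10 genes varied together across libraries (r between -0.98 and 1.00), so their signs are not 10 separate observations. Signs were also the same between the 2 libraries of 16-week-old mice, AT2 CTRL replicate 2 and AT2 CAB replicate 1. These 2 are among the 4 libraries, so their signs add no separate comparison. The differences there were largest for *Dbp* (1.64) and *Cry1* (-0.60) and near 0 for *Per2* (0.01). Among the 4 libraries of 12-week-old mice, a subset chosen after the data were seen, the values ran from -0.95 for *Npas2* to 1.54 for *Dbp*.

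**Figure D4:**
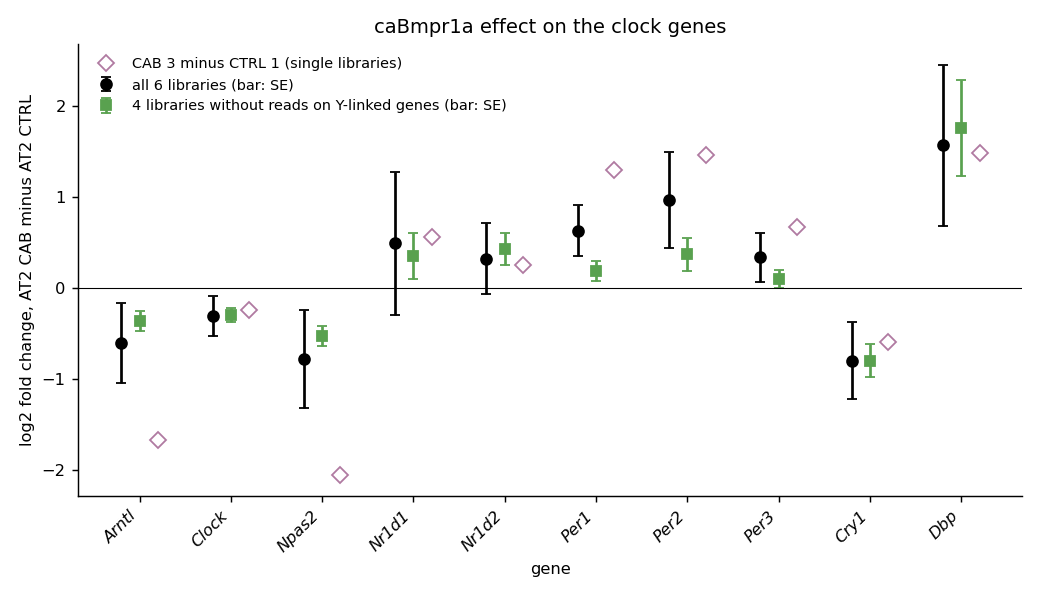
log2 fold change of each gene from AT2 CTRL to AT2 CAB (y axis) over all 6 libraries (circles, bars SE), over the 4 libraries without Y-linked reads (squares, bars SE) and between AT2 CAB replicate 3 and AT2 CTRL replicate 1 (diamonds, single libraries without error). For *Arntl*, *Npas2*, *Per1*, *Per2* and *Dbp* the diamonds lie beyond 1 in size, and for *Dbp* the 3 values lie between 1.49 and 1.76.

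The other parts of the clock followed the members unevenly. Of 12 second copies and loop factors, 0 were called, 8 had a log2 fold change above 0 and 4 below (median 0.313), and 9 had an extreme in AT2 CAB replicate 3 (54.3% of all genes). The widest ranges among them belonged to *Tef*, *Ciart* and *Rorb*. *Tef*, a D-box factor of the same family as *Dbp*, had 122.8, 50.6 and 28.9 CPM in AT2 CTRL and 66.8, 73.2 and 255.1 CPM in AT2 CAB, with the same lowest and highest libraries as *Dbp* (log2 fold change 0.97, SE 0.63, adjusted p = 0.651 from edgeR's test). *Ciart*, a repressor of the CLOCK-BMAL1 dimer, had 8.92, 4.33 and 4.83 CPM in AT2 CTRL and 4.49, 4.27 and 31.5 CPM in AT2 CAB, with 4 libraries near a common low level (1.17, SE 0.74, edgeR's adjusted p = 0.648). *Rorb*, which encodes an activator at ROR elements, had 3.94, 3.94 and 1.14 CPM in AT2 CTRL and 3.44, 2.40 and 5.89 CPM in AT2 CAB (0.38, SE 0.53, edgeR's adjusted p = 0.847). Its paralog *Rora*, named after its values were seen, had 87.1, 85.0 and 83.2 CPM in AT2 CTRL and 67.2, 64.3 and 64.9 CPM in AT2 CAB (-0.38, SE 0.10, edgeR's adjusted p = 0.268). AT2 CAB replicate 3 lay with its group there. *Rora* was the only gene of this list whose groups did not overlap, as those of 17.1% of all genes did not.

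Kinases, a phosphatase and ubiquitin ligases that act on clock proteins varied less, with a median range of 0.43. Of the 11 genes, 0 were called, 1 had a log2 fold change above 0 and 10 below (median -0.148). The widest ranges were those of *Usp2*, *Fbxl21* and *Gsk3b*. *Usp2*, a deubiquitinase gene that is itself under clock control, had 9.33, 5.44 and 4.11 CPM in AT2 CTRL and 5.78, 6.25 and 17.4 CPM in AT2 CAB, and was the only gene of the list above 0 (log2 fold change 0.65, SE 0.47, edgeR's adjusted p = 0.686). *Fbxl21*, a ligase subunit for CRY proteins, had between 0.683 and 2.70 CPM with its lowest level in AT2 CAB replicate 3 (-0.52, SE 0.55, edgeR's adjusted p = 0.791). *Gsk3b*, a kinase, had between 162.0 and 218.7 CPM in 5 libraries and 126.8 CPM in AT2 CAB replicate 3 (-0.34, SE 0.15, edgeR's adjusted p = 0.528).

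Among 16 outputs known to cycle in many tissues, *Usp2* included, 0 were called, 11 had a log2 fold change above 0 and 5 below (median 0.207), and 14 had an extreme in AT2 CAB replicate 3. Besides *Usp2*, the widest ranges were those of *Wee1* and *Tspan4*. *Wee1*, a kinase that delays entry into mitosis and an E-box target, had 48.4, 27.9 and 32.7 CPM in AT2 CTRL and 39.8, 45.7 and 115.2 CPM in AT2 CAB (0.88, SE 0.40, edgeR's adjusted p = 0.528). *Tspan4*, which encodes a tetraspanin, had 15.3, 11.7 and 7.31 CPM in AT2 CTRL and 11.2, 11.6 and 26.0 CPM in AT2 CAB (0.52, SE 0.38, edgeR's adjusted p = 0.687). In both, AT2 CAB replicate 3 was the highest library and AT2 CTRL replicate 1 the second highest, as for *Per2*, *Per3* and *Dbp*.

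Cues that are known to reset peripheral clocks were read through their target genes in the same libraries. Of 10 glucocorticoid-responsive genes (*Per1* included), 0 were called, 8 had a log2 fold change above 0 and 2 below (median 0.329), and 8 had an extreme in AT2 CAB replicate 3. *Zbtb16*, a transcription factor gene strongly induced by glucocorticoids, had 55.0, 23.4 and 20.3 CPM in AT2 CTRL and 13.5, 18.5 and 355.7 CPM in AT2 CAB (1.98, SE 1.12, edgeR's adjusted p = 0.614). *Fkbp5*, which encodes a co-chaperone of the glucocorticoid receptor, had 17.4, 7.76 and 8.26 CPM in AT2 CTRL and 9.03, 8.07 and 82.2 CPM in AT2 CAB (1.58, SE 0.85, edgeR's adjusted p = 0.598). Both genes put the 2 libraries with Y-linked reads first and second, with AT2 CAB replicate 3 far above AT2 CTRL replicate 1. They were named for the widest ranges of the list. Its median range was 1.01, against 0.79 for all genes, and 5 of its 10 genes had a range above 1 (40.6% of all genes). *Nfkbia* (NF-κB inhibitor) had the third widest range, from 105.4 to 288.2 CPM (0.23, SE 0.36, edgeR's adjusted p = 0.864).

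Immediate early genes, which are also induced by handling and dissociation of cells, had a median log2 fold change of 0.0474 over 12 genes, with 0 called, and a median range of 0.69, below that of all genes. The AP-1 gene *Fosb* had 1911, 1079 and 1226 CPM in AT2 CTRL and 973.2, 1218 and 2777 CPM in AT2 CAB (0.24, SE 0.39, edgeR's adjusted p = 0.869). *Atf3* (650.3 and 846.7 CPM) and *Ier3* (96.9 and 89.4 CPM) were likewise highest in AT2 CTRL replicate 1 and AT2 CAB replicate 3, in the order given, and had between 316.1 and 398.1 CPM and between 52.7 and 68.1 CPM in the other 4 libraries. Of 8 temperature-responsive genes, 0 were called, with a median log2 fold change of -0.0737. *Hsph1* had its highest level, 54.1 CPM, and *Hspa1b* its lowest, 2011 CPM, in AT2 CAB replicate 3, while *Hspa8* had 1661 CPM there and between 820.5 and 1243 CPM elsewhere, so the heat shock genes had no common direction there. At an unadjusted p under 0.05 from edgeR's test, the lists held 2 of 12 loop factors, 1 of 11 kinases, phosphatase and ligases, 4 of 16 outputs, 1 of 10 glucocorticoid-responsive, 1 of 12 immediate early and 1 of 8 temperature-responsive genes, against 1617 of all 16723 genes. The part of any of these cues in the clock gene levels was not tested.

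**Figure D5:**
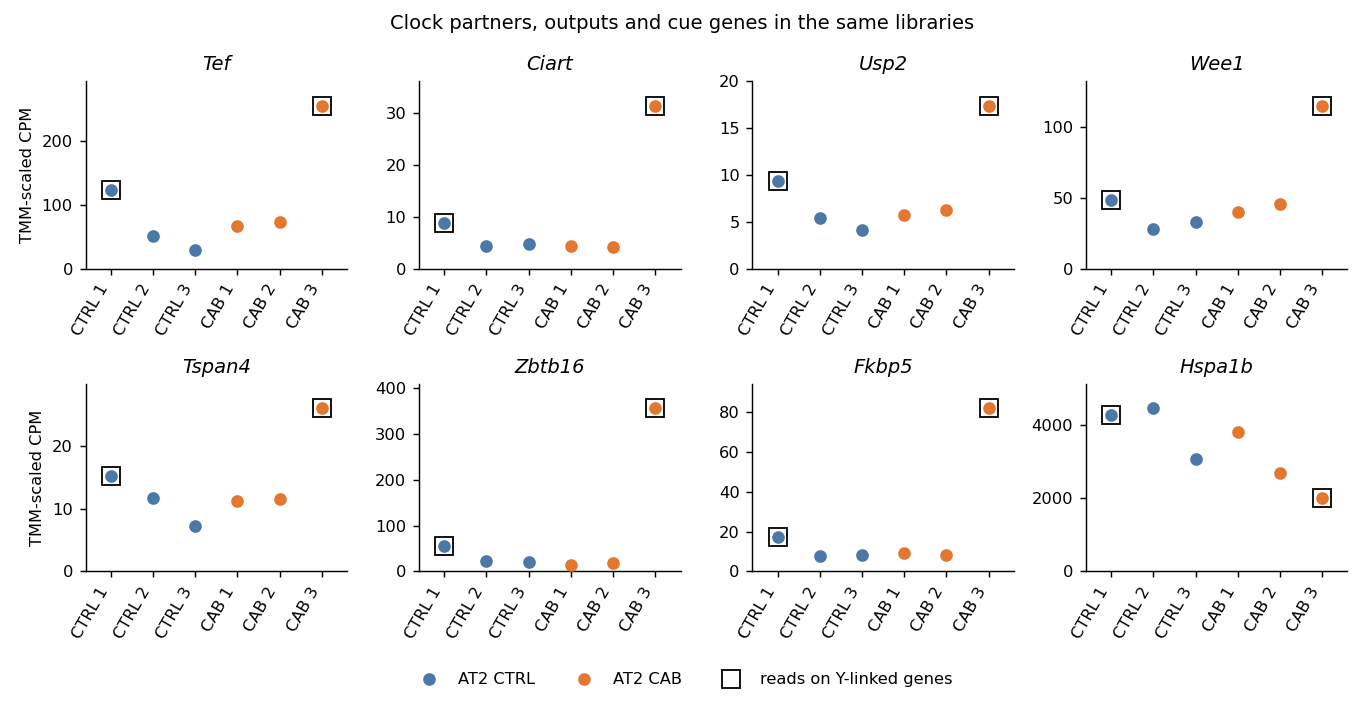
Levels (y axis, TMM-scaled CPM) of the clock partners *Tef* and *Ciart*, the outputs *Usp2*, *Wee1* and *Tspan4*, the glucocorticoid-responsive *Zbtb16* and *Fkbp5* and the heat shock gene *Hspa1b* in the 6 libraries (x axis), with squares around the 2 libraries with Y-linked reads. AT2 CAB replicate 3 is highest for all but *Hspa1b*, where it is lowest at 2011 CPM.

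Outside these lists, the genes most like *Arntl* were *Eya1*, *Zfp758*, *Gjb1*, *Zfp930* and *Il18r1*, each with r = 0.99 over the 6 libraries. They were picked as the highest r among 1746 genes with a range of at least 1 and a mean of at least 5 CPM, of which 79 had an r above 0.95. *Eya1*, a transcriptional coactivator gene, had 18.2, 23.6 and 28.7 CPM in AT2 CTRL and 19.3, 22.5 and 7.84 CPM in AT2 CAB, in the order of *Arntl* (rho = 1.00). *Gjb1*, which encodes a gap junction protein, departed from that order (rho = 0.83) with 20.8, 24.6 and 37.9 CPM in AT2 CTRL and 23.3, 20 and 4.30 CPM in AT2 CAB. Without the 2 libraries farthest from the *Arntl* median, r ranged from 0.63 for *Gjb1* and *Il18r1* to 0.91 for *Eya1*.

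The genes most like *Dbp*, 17 of which had an r above 0.95, were *Ncam1*, *Sfmbt2* and *Runx2* (r = 0.99 each) and *Wnt5a* and *Cntnap1* (r = 0.98 each). *Ncam1*, a cell adhesion gene, had 6.77, 4.16 and 2.59 CPM in AT2 CTRL and 5.55, 4.77 and 9.60 CPM in AT2 CAB. *Wnt5a*, a Wnt ligand gene, had 6.55, 3.86 and 2.13 CPM in AT2 CTRL and 4.95, 3.53 and 11.1 CPM in AT2 CAB. All 5 were low in these cells and placed AT2 CTRL replicate 3 lowest and AT2 CAB replicate 3 highest, and without those 2 libraries r stayed between 0.90 and 0.99.

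Compared per exon length (RPKM), *Nr1d1* and *Per1* were the most abundant of the 10, with medians of 50.7 (26.9 to 235) and 50.2 (42.2 to 109) RPKM over the 6 libraries. *Arntl* followed with 20.8 (5.48 to 29.7), then *Nr1d2* with 14.5 (9.13 to 28.6), *Npas2* with 11.9 (2.25 to 18.9), *Dbp* with 11.3 (1.72 to 51.1), *Clock* with 8.94 (6.04 to 11.5), *Per2* with 8.52 (6.74 to 32.3), *Per3* with 7.55 (7 to 14.7) and *Cry1* with 5.89 (2.68 to 12.4). Full exon lengths were used, so *Dbp*, with 32.1% of its exonic bases left out of the counting, is set too low and its place is uncertain. *Per1* was above *Arntl* in each of the 6 libraries. All other neighbours in this order had ranges that overlapped, so their order was not larger than the spread between libraries.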

How the data were processed

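Poly(A) RNA of sorted AT2 cells was sequenced from 3 AT2 CTRL and 3 AT2 CAB mice, and groups and replicate numbers were taken from the sample labels. The authors deposited raw read counts per gene, made by trimming, HISAT2 alignment to mm10, removal of duplicates and featureCounts 1.5.3 without strand. Mates appear to have been counted separately, which overstates the precision of low counts. All 6 count columns were used. Counts were TMM-scaled and tested with edgeR 4.0.16 in R 4.3.3 (minimum count 10, quasi-likelihood test, Benjamini-Hochberg adjustment), after a check on simulated counts. Calls needed a log2 fold change over 1 in size and an adjusted p under 0.05. The study's methods name DESeq2, which was an alternative here (1.42.0), as was limma-voom (limma 3.58.1). The standard error is the fold change divided by the square root of F. log2 CPM used a prior count of 2. With 3 against 3 an exact permutation test cannot go below 0.1.

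The members and lists were chosen with earlier results of these data known. Named are all members, any list gene with an adjusted p under 0.05 and otherwise the 3 of widest range in each clock, output and cue list, and the 5 genes outside the lists most like *Arntl* and *Dbp*. *Rora*, *Lyz1* and *Krt5* were named after their values were seen. Promoter sequences are RefSeq's.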

Additional observations from a re-analysis of the deposited data

How the results depend on the processing

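None of the 10 clock genes was called under any setting tried. Their log2 fold changes kept their direction except without AT2 CAB replicate 3, where 3 turned from above to below 0: *Nr1d1* from 0.49 to -0.70, *Nr1d2* from 0.32 to -0.05 and *Per3* from 0.34 to -0.03. *Per2* was 0.06 there. With a covariate for Y-linked reads *Cry1* alone had an adjusted p under 0.05 (0.042 from edgeR's test, log2 fold change -0.76), against 0.106 to 0.965 under the other settings. Since the members were chosen with these libraries in view, this value is a description only. The number of genes called over the whole table, 40, was 62 without the expression filter, 144 with DESeq2, 26 with limma-voom and 142 with that covariate. Leaving out 1 library gave 6 to 63, with 13 without AT2 CTRL replicate 1, 6 without replicate 2 and 7 without replicate 3, and 63, 8 and 27 without AT2 CAB replicates 1, 2 and 3. Clock genes whose groups did not overlap numbered 1 (*Per1*) with upper-quartile scaling (15.6% of all genes) and with library size only (16.5%). In the 4 libraries of 12-week-old mice the number was also 1 (*Per1*, 36.6% of all genes). It was 8 in the 4 libraries without Y-linked reads (44.9%). With 1 library left out it was 0 to 6, the 6 without AT2 CTRL replicate 1, where 36.5% of all genes did not overlap. Wherever libraries were left out, the rest were scaled by TMM on their own. The median log2 fold change of the 10 ranged from -0.0812 without AT2 CAB replicate 3, where 3 of 10 were above 0, to 0.559 without AT2 CAB replicate 2, and was 0.0619 without AT2 CTRL replicate 3. Scaling by library size only moved the median of all genes to 0.121, with no sign of a clock gene turned. With the replicate number as a replicate block 41 genes were called and the clock median was 0.266. The deviations of same-numbered libraries from their group means had correlations of -0.24, 0.20 and -0.53. With so few libraries these values cannot decide whether the numbers pair the mice. The block changed no call of a clock gene. The causes were not tested. At 76 counts, the lowest *Dbp* value is far above the floor of 3.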
